A study of Rattus norvegicus with 9 samples.

Results

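The Nrf2 pathway was followed at the RNA level in rat liver through 9 genes: Nfe2l2, which encodes the transcription factor Nrf2, its inhibitor Keap1, and 7 target genes of antioxidant defence, Nqo1, Gclc, Gclm, Slc7a11, Txnrd1, Srxn1 and Hmox1. The members were found by the RefSeq accession that the array design gives each probe. All 9 genes were matched, by 11 of the 41012 probes, among 13438 genes named in this way. Liver RNA came from 9 male Wistar rats, with 1 single-colour Agilent array per rat and 3 rats in each of 3 groups. The control rats received neither drug nor radiation, and per the study's methods they were not placed in the irradiation containers. The TBI rats received total-body irradiation of 6.5 Gy from a 60Co source at 2 Gy/min. The HSC + TBI rats were given Hong Shan Capsule (HSC), a crude drug made from several herbs, by the intragastric route on 3 consecutive days before the same irradiation. The sample labels give the HSC dose as 30 mg/kg/day and the series design gives 10 g/kg/day. All livers were collected 24 h after exposure, and the ages of the rats are not given in the sources used here. No array of rats given HSC alone was analysed here, so the HSC + TBI values hold drug and radiation together.

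In resting cells Keap1 holds Nrf2 in the cytoplasm and passes it to the proteasome. Oxidants and electrophiles modify cysteines of Keap1, newly made Nrf2 then escapes to the nucleus, and with a small Maf protein it binds the antioxidant response element in front of genes for glutathione synthesis, thioredoxin repair, quinone reduction and heme breakdown. In liver this programme is known for its part in the handling of drugs, bile acids and reactive oxygen.

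The value of a gene is the quantile-normalized log2 signal of its probe, so that 1 unit is a doubling, and it was compared only with the same probe on other arrays. A gene was tested if every array of some group had its probe well above background, which held for 8 of the 9 members. To be called, a gene had to reach 1.5-fold and an adjusted p (Benjamini-Hochberg, over all probes tested by limma) under 0.05. For a single gene, the smallest p that an exact two-sided permutation test of 3 rats against 3 allows is 0.1.

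The arrays of the groups lay on different slides. The 3 controls shared the first slide, the 3 TBI rats the second, HSC + TBI 1 and 3 the third and HSC + TBI 2 the fourth, so no slide held rats of different groups and slide and group cannot be told apart in any of the 3 comparisons. The share of probes above background was 56.6% to 59.3% on control, 63.6% to 69.5% on TBI and 58.7% to 60.4% on HSC + TBI arrays. All 8 hepatocyte markers were above background on all 9 arrays, and their summed linear signal was 849400 to 926100 in control, 782100 to 960800 in TBI and 864400 to 963000 in HSC + TBI rats. The sum rests mainly on the brightest markers, and single markers went apart. After TBI, Tat was called higher (log2 fold change 1.53, adjusted p = 0.0287) and Ttr was not called (-0.53, adjusted p = 0.13). Tat was the 1 marker of the 8 called after TBI, against 7.79% of all genes.

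Promoters of the members were read from RefSeq (assembly GRCr8), as windows of 300 bases from 250 before the transcript start to 50 after it. Windows were found for 8 of the 9 members, with a pair of windows for Txnrd1, and none was printed for Hmox1. Searched on both strands, the core of the antioxidant response element, TGACNNNGC, was present in the windows of 3 members, Nfe2l2, Gclm and Txnrd1, and in 12.1% of all 33469 windows. The related TGAGNNNGC was present in Srxn1 alone among the members and in 17.2% of all windows, and TGACTCA, the AP-1 site, in Srxn1 alone and in 4.63% of all windows. The stretches below are those that hold the matches, shown so that the values of each gene can be read beside its letters, and one of Nqo1, whose window holds none. They run 5′ to 3′ on the strand of the gene, with the matches in capitals.
Nfe2l2: actgctccgactagccatTGACGCCGCctc
Srxn1: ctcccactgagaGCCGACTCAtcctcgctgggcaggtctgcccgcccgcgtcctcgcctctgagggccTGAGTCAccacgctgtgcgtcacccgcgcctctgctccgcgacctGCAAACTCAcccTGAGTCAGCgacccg
Gclm: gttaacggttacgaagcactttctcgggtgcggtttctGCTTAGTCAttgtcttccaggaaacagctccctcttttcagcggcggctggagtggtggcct
Txnrd1: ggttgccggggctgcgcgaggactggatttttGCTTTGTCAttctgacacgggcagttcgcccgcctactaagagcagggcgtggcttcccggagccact
Nqo1: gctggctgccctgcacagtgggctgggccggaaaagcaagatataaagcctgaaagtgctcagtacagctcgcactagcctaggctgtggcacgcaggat

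The Nfe2l2 stretch lies at chr3:81028950-81028979 on the minus strand and covers bases 21 to 50 of the transcript. The Srxn1 stretch lies at chr3:161064682-161064821 on the plus strand and runs from 130 bases before the start to base 10 of the transcript. In it the TGACTCA match nearest the start shares its letters with a TGAGNNNGC match. The Gclm stretch, chr2:213031925-213032024 on the plus strand, covers 210 to 111 bases before the start. The Txnrd1 stretch, chr7:22755915-22756014 on the minus strand, belongs to the second of its windows and covers 110 to 11 bases before the start. The Nqo1 stretch, chr19:52220268-52220367 on the minus strand, covers the 100 bases before the start. A match describes letters only, and a window without one says nothing about elements farther away.

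Nfe2l2, the transcription factor itself, rose in both irradiated groups. Its log2 signal was 11.40, 11.18 and 11.23 in the 3 control rats, 12.56, 12.15 and 12.47 in the TBI rats, and 12.26, 12.13 and 12.16 in the HSC + TBI rats. Every irradiated rat lay above every control, and the HSC + TBI values fell inside or just below the range of the TBI values. After TBI the level was 2.18-fold that of control, a log2 fold change of 1.12 ± 0.14 (SE, n = 3 rats per group, adjusted p = 0.00309). After HSC + TBI it was 1.88-fold that of control (log2 fold change 0.91 ± 0.14, adjusted p = 0.0104). The difference of HSC + TBI from TBI was -0.21, with a 95% confidence interval of -0.52 to 0.10 (adjusted p = 0.493). The call after TBI held with each of the 9 rats left out in turn, with log2 fold changes of 1.04 to 1.24. The call after HSC + TBI was lost without control 3 (0.89, adjusted p = 0.0501) and without HSC + TBI 1 (0.88, adjusted p = 0.0566). Over the 3 groups its adjusted p by limma's F-test was 0.00533.

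**Figure D1:**
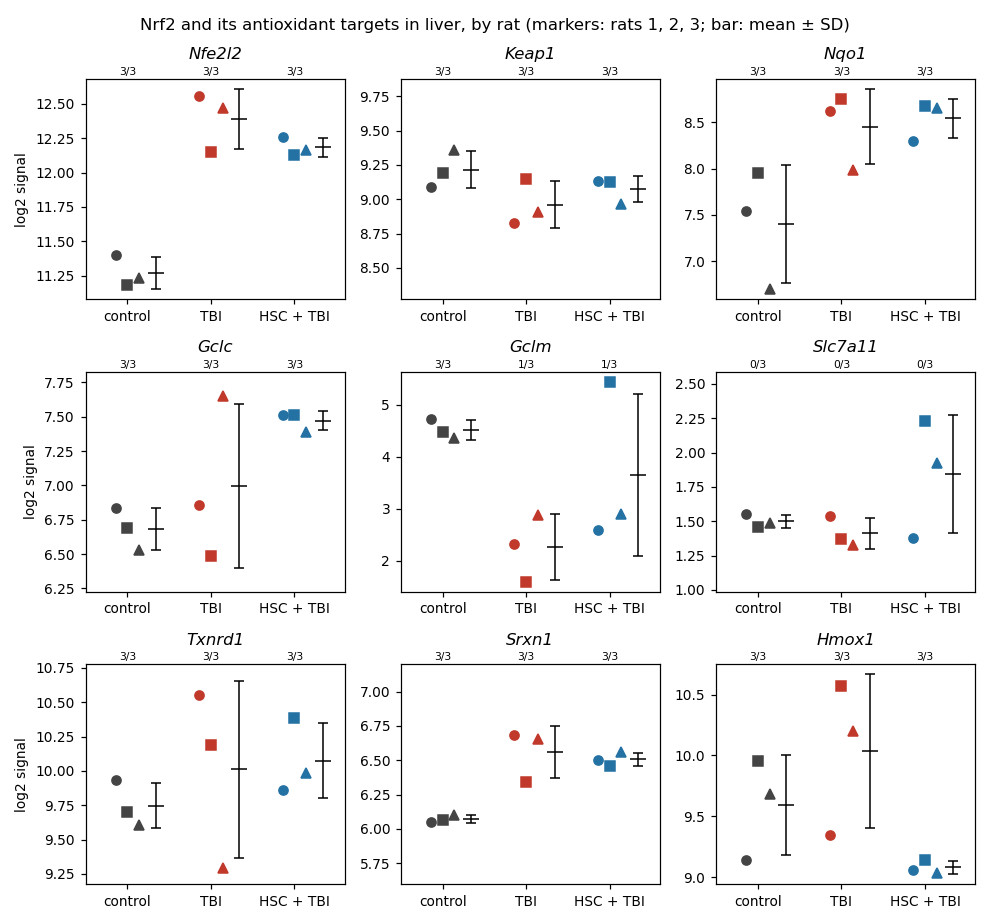
Log2 signal of the 9 member genes (y axis, scaled separately for each gene and never spanning less than 1.6 units) in control, TBI and HSC + TBI rats. Circles, squares and triangles are rats 1, 2 and 3 of a group, the bar beside them is the mean ± SD, and the fraction above each group is the number of arrays on which the probe was above background. Nfe2l2, Nqo1 and Srxn1 lay higher in every irradiated rat than in every control, Gclm lay lower in every TBI rat than in every control, and Slc7a11 was not above background on any array.

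Keap1, the inhibitor that marks Nrf2 for destruction, overlapped between all groups. Its log2 signal was 9.09, 9.19 and 9.36 in control, 8.82, 9.15 and 8.90 in TBI, and 9.13, 9.13 and 8.96 in HSC + TBI rats. The mean was highest in control and lowest after TBI, and no neighbours in that order differed beyond their spread. The log2 fold change was -0.25 after TBI (95% confidence interval -0.55 to 0.05, adjusted p = 0.268), -0.14 after HSC + TBI (-0.44 to 0.16, adjusted p = 0.612) and 0.11 between the irradiated groups (-0.18 to 0.41, adjusted p = 0.706).

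Nqo1, a quinone reductase often used as a readout of Nrf2, lay higher in all 6 irradiated rats, although its change did not pass the adjusted threshold. Its log2 signal was 7.54, 7.95 and 6.70 in control, 8.62, 8.75 and 7.99 in TBI, and 8.30, 8.67 and 8.66 in HSC + TBI rats. Neither irradiated group overlapped with control, and the lowest TBI value exceeded the highest control value by little. The level was 2.07-fold that of control after TBI, with a log2 fold change of 1.05 ± 0.32 (SE, adjusted p = 0.0836). After HSC + TBI it was 2.21-fold that of control, with a log2 fold change of 1.14 ± 0.32 (adjusted p = 0.098), or 0.75 with normexp background correction. The controls varied most, with an SD of 0.64 against 0.41 in TBI and 0.21 in HSC + TBI rats. Between the irradiated groups the log2 difference was 0.09, with a 95% confidence interval of -0.64 to 0.83.

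The subunits of glutamate-cysteine ligase, the first enzyme of glutathione synthesis, had different patterns. Gclc, the catalytic subunit, had log2 signals of 6.84, 6.69 and 6.53 in control, 6.85, 6.49 and 7.65 in TBI, and 7.51, 7.51 and 7.39 in HSC + TBI rats. All HSC + TBI rats lay above all controls and close to each other, whereas among the TBI rats only TBI 3 was high. The log2 fold change was 0.31 after TBI (95% confidence interval -0.28 to 0.91, adjusted p = 0.491) and 0.79 after HSC + TBI (0.19 to 1.38, adjusted p = 0.146). Between HSC + TBI and TBI it was 0.47 (-0.12 to 1.07, adjusted p = 0.417). TBI 3 bore on these results: without it, the HSC + TBI rats were called higher than the TBI rats (0.80, adjusted p = 0.0423) and the log2 fold change after TBI was -0.02. The change after HSC + TBI kept its size of 0.79 without TBI 3, and with the smaller spread of that fit it was called (adjusted p = 0.0272). With normexp background correction it was 0.41.

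Gclm, the modifier subunit, was dim. Its log2 signal was 4.73, 4.48 and 4.36 in control rats, where it was above background on 3 of 3 arrays. It was 2.32, 1.601 and 2.88 in TBI rats and 2.602, 5.44 and 2.90 in HSC + TBI rats, above background on 1 of 3 arrays in each group. Gclm was thus tested only through the control group, where it was high, so the filter favoured a fall. All TBI rats lay below all controls, and HSC + TBI 2 lay above them. The log2 fold change was -2.26 after TBI (adjusted p = 0.0787) and -0.87 after HSC + TBI (adjusted p = 0.528), with most irradiated values in the background. Without HSC + TBI 2, whose spread the comparison of TBI with control shares, the TBI change was called (adjusted p = 0.00791). With normexp background correction it shrank to -0.31. Slc7a11, the cystine transporter that supplies glutathione synthesis, was not above background on any of the 9 arrays and was not tested.

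In the thioredoxin system, Srxn1 lay higher in every irradiated rat and Txnrd1 did not separate by its brightest probe. Srxn1 encodes sulfiredoxin, which repairs overoxidized peroxiredoxins, and its promoter held the matches of TGAGNNNGC and TGACTCA printed above. Its log2 signal was 6.05, 6.06 and 6.10 in control, 6.68, 6.34 and 6.66 in TBI, and 6.50, 6.46 and 6.56 in HSC + TBI rats. The controls lay within a narrow range below all irradiated rats. After TBI the level was 1.40-fold that of control, with a log2 fold change of 0.49 ± 0.12 (SE, adjusted p = 0.0441). This passed the p threshold and missed the minimum fold, so the gene was not called. After HSC + TBI the log2 fold change was 0.43 ± 0.12 (adjusted p = 0.0946), and between the irradiated groups the log2 difference was -0.05 (95% confidence interval -0.33 to 0.22). Without TBI 2 Srxn1 was called after TBI (0.60, adjusted p = 0.0285). With normexp background correction the log2 fold change fell to 0.17 after TBI and 0.16 after HSC + TBI.

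Txnrd1, the cytosolic thioredoxin reductase, was measured by 3 probes. The brightest had log2 signals of 9.93, 9.70 and 9.61 in control, 10.55, 10.19 and 9.29 in TBI, and 9.86, 10.39 and 9.98 in HSC + TBI rats. TBI 3 was the lowest and TBI 1 the highest of all 9 rats, and all groups overlapped. Its log2 fold change was 0.26 after TBI (adjusted p = 0.62) and 0.33 after HSC + TBI (adjusted p = 0.598). The second probe gave 0.43 (adjusted p = 0.134) and 0.41 (adjusted p = 0.207), with neither irradiated group overlapping control. The third gave 0.26 (adjusted p = 0.424) and 0.28 (adjusted p = 0.471), with HSC + TBI not overlapping control and TBI overlapping it. The probes agreed in direction against control and none was called.

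Hmox1, the inducible heme oxygenase that splits heme into biliverdin, carbon monoxide and iron, followed another order. Its probe had 10 spots per array, whose log2 signals had an SD of 0.0375 to 0.0671 within an array. The log2 signal was 9.15, 9.95 and 9.68 in control, 9.34, 10.57 and 10.20 in TBI, and 9.06, 9.14 and 9.04 in HSC + TBI rats. The HSC + TBI rats lay close together and below every other rat, though control 1 was almost level with HSC + TBI 2. The log2 fold change was 0.44 after TBI (95% confidence interval -0.26 to 1.15, adjusted p = 0.408) and -0.51 after HSC + TBI (-1.22 to 0.20, adjusted p = 0.409). Between HSC + TBI and TBI the log2 difference was -0.96 (-1.66 to -0.25), a 1.94-fold lower level that passed an unadjusted p (0.014) and not the adjusted one (0.189). Without TBI 1, the lowest of the TBI rats, it was called (-1.30, adjusted p = 0.0316).

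Markers of Kupffer cells and macrophages, cells known for their use of Hmox1 in clearing heme, moved with Hmox1 from rat to rat. Of the 8 markers, 7 were matched by accession, Cd163, Marco, Clec4f, Vsig4, Cd68, Csf1r and Adgre1, and all 7 were above background on all 9 arrays. Their summed linear signal was 46900 to 67490 in control, 46580 to 87850 in TBI and 32730 to 35670 in HSC + TBI rats. Each of the 7 was lower in HSC + TBI than in TBI, with a median log2 difference of -1.10. An unadjusted p under 0.05 was reached by 6, against 15.0% of all genes, and none was called, against 0.792%. The markers were read on the same arrays, so these counts are not of independent results. Examples of the 7 are Cd68 (-1.10, adjusted p = 0.108), Csf1r (-1.28, adjusted p = 0.138) and Cd163 (-0.14, adjusted p = 0.807). Over the 9 arrays, Pearson's r of Hmox1 with the mean log2 signal of the 7 markers was 0.986 and Spearman's rho 0.946. With the deviations from each group's mean r was 0.982, and without TBI 2 and TBI 3, the arrays farthest from the median marker level, it was 0.954 over 7 arrays. With the 8 hepatocyte markers r was 0.105. The points are whole arrays that share RNA quality, slide and normalization, so these values are a description. The part of these cells in the Hmox1 values was not tested, and in whole liver fewer cells of a type and less RNA per cell cannot be told apart. Nfe2l2 had an r of 0.0361 with the Kupffer cell markers over the same arrays, of -0.858 with the deviations from each group's mean, and of -0.503 without TBI 2 and TBI 3.

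**Figure D2:**
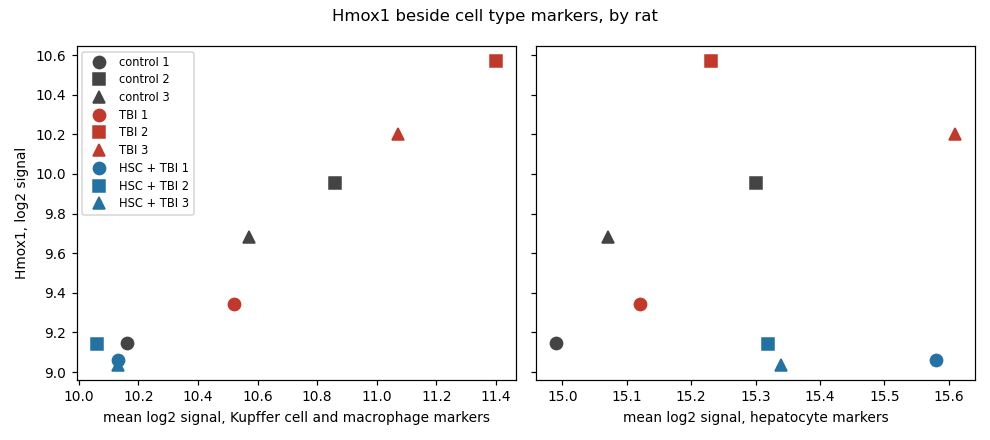
Log2 signal of Hmox1 (y axis) against the mean log2 signal of 7 Kupffer cell and macrophage markers (left x axis) and of 8 hepatocyte markers (right x axis), with 1 point per rat. Hmox1 rose with the Kupffer cell markers from the HSC + TBI rats at the lower left to TBI 2 at the upper right (r = 0.986), and the points were scattered against the hepatocyte markers (r = 0.105).

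Other cell types were followed in the same way. Leukocyte markers (7 of 8 matched) summed to 466.9 to 681.1 in control, 245 to 662.6 in TBI and 156.8 to 174.3 in HSC + TBI rats, with Cd3e above background on no array. Single members of this list went apart. Itgam, Ptprc and Cd8a were called in no comparison. Their log2 fold changes were 1.15, -0.21 and -0.90 after TBI, and -1.13, -1.29 and -1.64 after HSC + TBI. Cd3g, of T cells, averaged 7.13 on the log2 signal scale in control rats, against 3.52 after TBI and 2.70 after HSC + TBI. Cd79b, of B cells, averaged 5.16, 2.24 and 1.90. Cd3g and Cd79b were called lower in both irradiated groups, where most of these arrays were in the background. Both were tested only through the control group, where they were high, so the filter favoured a call of lower. The mean log2 signal of the list was 5.19 to 5.47 in control, 3.53 to 4.46 in TBI and 3.32 to 3.44 in HSC + TBI rats, with no overlap between groups. Of the other lists, 4 of 6 sinusoidal endothelial, 3 of 5 bile duct, 6 of 6 stellate and 2 of 4 erythroid markers were matched. Sinusoidal endothelial markers summed to 12580 to 15510, 16600 to 20450 and 15370 to 17080 in control, TBI and HSC + TBI rats. Kdr was the brightest of them. Their mean log2 signal overlapped between control and each irradiated group, at 9.125 to 9.579, 9.391 to 9.666 and 9.091 to 9.327. The log2 fold changes of Lyve1, Kdr, Pecam1 and Cdh5 were 0.53, 0.33, 0.12 and -0.27 after TBI. After HSC + TBI they were 0.40, 0.15, -0.40 and -0.67. Stellate cell markers summed to 11480 to 13520, 8091 to 16150 and 9538 to 10020 in the same group order. Bile duct markers summed to 469 to 559.2, 370.7 to 705.6 and 441 to 506.8, and erythroid markers, open to globin paralogs, to 1765 to 4349, 887.4 to 2358 and 723.5 to 1459. The r of Hmox1 over the 9 arrays was 0.469 with the leukocyte, 0.797 with the endothelial and 0.708 with the stellate markers. With the deviations from each group's mean it was 0.917, 0.621 and 0.722, so a high value was not particular to the Kupffer cell markers. The r of Nfe2l2 with the leukocyte markers was -0.841, and -0.705 with the deviations. The part of these cell types in the values of the members was not tested.

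Counted together, 1 of the 8 tested members was called after TBI, Nfe2l2, against 7.79% of the 9601 genes tested (3.87% higher and 3.92% lower). After HSC + TBI the same gene was the 1 member called, against 3.89% of all genes (1.18% higher and 2.71% lower). Between HSC + TBI and TBI no member was called by limma, against 0.792% of all genes (0.271% higher and 0.521% lower), and none by the methods' t-test. In this last comparison a scaling to the 75th percentile changed the balance of calls, with 13.7% of the called probes higher instead of 29.2%. At an unadjusted p under 0.05 there were 4, 4 and 1 members in the same order, against 26.1%, 21.9% and 15.0% of all genes. Non-overlapping groups were seen for 4 members after TBI (Nfe2l2, Nqo1, Gclm and Srxn1, against 29.9% of all genes), 5 after HSC + TBI (Nfe2l2, Nqo1, Gclc, Srxn1 and Hmox1, against 34.5%) and 1 between the irradiated groups (Hmox1, against 21.3%). Gclm was among the 4 after TBI by both counts. As it was tested only through the control group, where it was high, the filter favoured its entry. The median log2 fold change of the 8 members was 0.38 after TBI and 0.38 after HSC + TBI, with medians over all genes of 0.01 and 0.02, and both comparisons share the control rats. It was 0.08 between the irradiated groups. By limma's F-test 1 of the 8 members, Nfe2l2, differed among the 3 groups, against 7.51% of all genes.

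**Figure D3:**
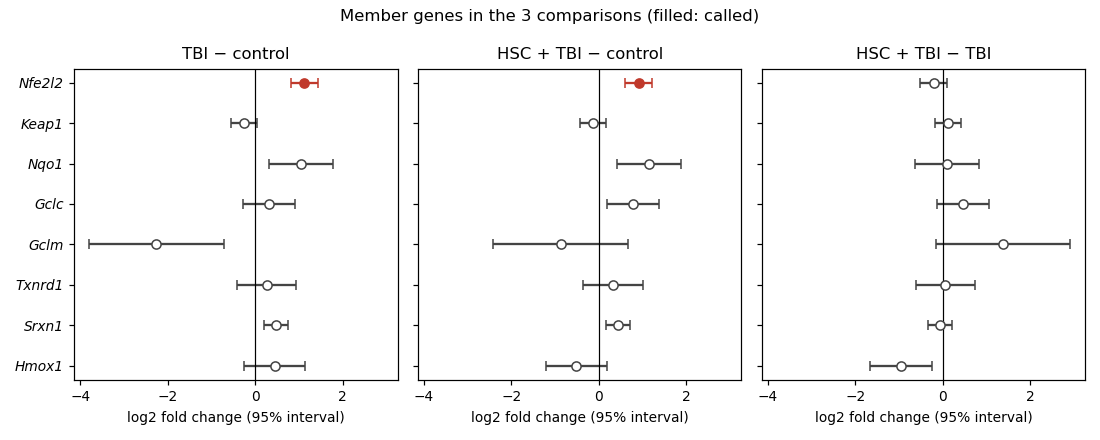
Log2 fold changes of the 8 tested members (x axis) with 95% confidence intervals from limma, with 1 panel for each pair of groups. Filled points are called, which applied to Nfe2l2 at 1.12 and 0.91 in the comparisons with control and to no member between the irradiated groups.

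The members did not move as 1 block over the rats. Across the 9 arrays Srxn1 had a Pearson's r of 0.964 with Nfe2l2, Nqo1 an r of 0.727, Gclc 0.585, Txnrd1 0.344, Gclm -0.635 and Hmox1 -0.043. Keap1 had an r of -0.762 with Nfe2l2. Using deviations from the group means, r with Nfe2l2 was 0.787 for Srxn1, 0.577 for Gclc, 0.115 for Gclm, -0.0242 for Txnrd1, -0.283 for Nqo1, -0.741 for Keap1 and -0.863 for Hmox1. Among 8529 genes above background on all 9 arrays, those most like Nfe2l2 were Chka (r = 0.974), Surf6 (0.973) and Svil (0.973). Those most like Nqo1 were Wdr45b (0.975), Mccc1 (0.968) and Noc3l (0.961). Those most like Keap1 were Aagab (0.934), Snrnp200 (0.919) and Ttc7a (0.901). Those most like Hmox1 were Tnnt1 (0.996), Nckap1l (0.993) and P2ry6 (0.988). All of these values share the same 9 arrays, with their group differences and normalization, and are given as a description.

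The wider pathway was read from 7 lists with 68 further genes, of which 63 were matched and 62 tested. After TBI 3 rose and 3 fell, together 9.68% of those tested against 7.79% of all genes. After HSC + TBI 1 rose and 1 fell (3.23%, against 3.89%), and between HSC + TBI and TBI limma called none, against 0.792% of all genes. In the 3 comparisons 19, 19 and 8 of the 62 passed an unadjusted p under 0.05, against 26.1%, 21.9% and 15.0% of all genes. Between the irradiated groups the methods' t-test without adjustment called 2, against 1367 of the 25367 tested probes. The median log2 fold changes were -0.02, -0.03 and -0.02 in the same order. The lists overlap in function with other responses, and a probe for a Gsta, Gstm or Ugt1a6 gene can pick up close relatives.

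**Figure D4:**
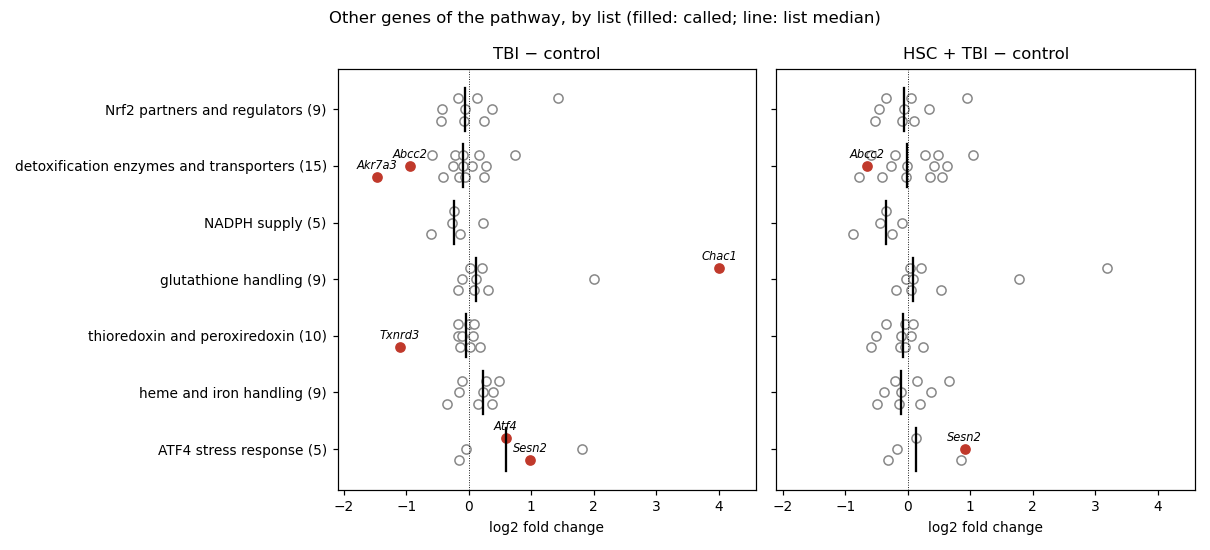
Log2 fold changes of the 62 tested genes of 7 pathway lists (rows, with the number tested in each) after TBI and after HSC + TBI, both against control. Each circle is a gene, filled circles are called and named, and the vertical line is the list median. Called genes lay on both sides of 0 after TBI, with Chac1 at 4.003 the farthest to the right and Akr7a3 at -1.47 the farthest to the left.

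Of the Nrf2 partners and regulators, 9 were tested and limma called none in any of the 3 comparisons. An unadjusted p under 0.05 was reached by 3, 2 and 0, against 26.1%, 21.9% and 15.0% of all genes. Mafg, a small Maf partner of Nrf2, was at 10.64, 10.53 and 10.66 in control, 10.17, 10.13 and 10.21 in TBI and 10.12, 10.14 and 10.17 in HSC + TBI rats. It lay lower in every irradiated rat, by -0.44 (adjusted p = 0.0314) and -0.46 (adjusted p = 0.0413) on the log2 scale, under the minimum of 1.5-fold. Maff, another small Maf, was dim, at 1.16, 3.104 and 3.85 in control rats, where it was above background on no array, 3.63, 4.21 and 4.57 in TBI rats, with all 3 arrays above it, and 3.99, 3.55 and 3.41 in HSC + TBI rats, with 1 of 3. The groups overlapped (adjusted p = 0.18, 0.432 and 0.727 in the 3 comparisons), and no fold against the control background is given. Mafk differed by -0.32 between HSC + TBI and TBI (adjusted p = 0.528). Sqstm1, which encodes the p62 adaptor that sequesters Keap1, differed by -0.53 after HSC + TBI (adjusted p = 0.071).

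Among the detoxification enzymes and transporters 15 of 17 genes were tested, and 2 fell after TBI and none rose. Of all genes, 3.92% were called lower and 3.87% higher in that comparison. Abcc2, the canalicular export pump for conjugates, was at 14.37, 14.17 and 14.28 in control, 13.37, 13.26 and 13.37 in TBI and 13.77, 13.65 and 13.46 in HSC + TBI rats. Each group lay apart from the others, with control highest and TBI lowest. Its level was 1.92-fold lower after TBI (log2 fold change -0.94 ± 0.12, adjusted p = 0.00393) and 1.57-fold lower after HSC + TBI (-0.65 ± 0.12, adjusted p = 0.0271). The difference between the irradiated groups was 0.29 (adjusted p = 0.284). The call after TBI held with each of the 9 rats left out, and that after HSC + TBI was lost in 6 of the 9 fits, those that leave out a control or an HSC + TBI rat. Akr7a3, an aldo-keto reductase for aflatoxin aldehydes, was at 14.53, 14.61 and 14.66 in control, 13.99, 12.69 and 12.71 in TBI and 13.22, 13.99 and 14.23 in HSC + TBI rats. It fell 2.77-fold after TBI (log2 fold change -1.47, adjusted p = 0.047), and this call was lost in 7 of the 9 fits that leave out a rat, without any control, TBI 2 or 3, or HSC + TBI 2 or 3. After HSC + TBI its log2 fold change was -0.79 (adjusted p = 0.287), and it differed by 0.68 between the irradiated groups (adjusted p = 0.41). Abcc3, the basolateral export pump, differed by 1.05 after HSC + TBI (adjusted p = 0.192; 0.40 with normexp background correction), and Osgin1 was lower in HSC + TBI than in TBI by -0.75 (adjusted p = 0.358).

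In the list of NADPH supply 5 of 6 genes were tested and limma called none. In the 3 comparisons 2, 4 and 1 passed an unadjusted p under 0.05, against 26.1%, 21.9% and 15.0% of all genes. Me1, malic enzyme, differed by -0.60 after TBI (adjusted p = 0.0702) and was called without TBI 3 (-0.73, adjusted p = 0.0329). It differed by -0.44 after HSC + TBI (adjusted p = 0.207), or -0.79 as the mean of its probes, and differed by 0.16 between the irradiated groups (adjusted p = 0.687). For Taldo1, transaldolase, the change after TBI was -0.27 (adjusted p = 0.154).

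Of the genes of glutathione handling, 9 of 10 were tested and 1 rose after TBI, against 3.87% of all genes. Chac1, which breaks down glutathione and is a known ATF4 target, was at 5.996, 8.66 and 6.79 in control, 10.48, 11.10 and 11.87 in TBI and 11.48, 9.01 and 10.52 in HSC + TBI rats. All irradiated rats lay above all controls, and control 2 and HSC + TBI 2 lay close to each other. Its level was 16.0-fold that of control after TBI, with a log2 fold change of 4.003 ± 0.78 (SE, adjusted p = 0.0194). After HSC + TBI the log2 fold change was 3.19 (adjusted p = 0.068), and the difference between the irradiated groups was -0.81 (adjusted p = 0.645). The TBI call was lost without control 1 (adjusted p = 0.0567), control 3 (0.0736) or TBI 2 (0.0536), and the change after HSC + TBI was called without control 2 (3.95, adjusted p = 0.0447). Gpx2, an epithelial glutathione peroxidase, was above background on 2 of 3 control arrays and on all arrays of both irradiated groups. It was thus tested only through the irradiated groups, where it was high, so the filter favoured a rise. Its log2 fold changes were 2.01 after TBI (adjusted p = 0.102) and 1.78 after HSC + TBI (adjusted p = 0.187). It was called after TBI without TBI 1 (2.69, adjusted p = 0.0315). With normexp background correction the changes were 0.56 and 0.41. Glrx differed by -0.27 between HSC + TBI and TBI (adjusted p = 0.465).

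Of the 10 genes of thioredoxins and peroxiredoxins, all tested, 1 fell after TBI, against 3.92% of all genes. Txnrd3, a thioredoxin reductase best known from testis, was at 5.45, 5.35 and 5.69 in control, 4.06, 4.27 and 4.86 in TBI and 5.24, 4.51 and 5.22 in HSC + TBI rats. Every TBI rat lay below every control, with a difference of -1.10 on the log2 scale (adjusted p = 0.0364). The call was lost in 7 of the 9 fits that leave out a rat, without any control, TBI 1 or 2, or HSC + TBI 1 or 3, and with normexp background correction, where the log2 fold change was -0.37. Txnrd3 differed by -0.50 between HSC + TBI and control (adjusted p = 0.325) and by 0.60 between HSC + TBI and TBI (adjusted p = 0.3). Txnip, the inhibitor of thioredoxin, was at 9.15, 9.26 and 9.26 in control, 8.96, 9.02 and 9.15 in TBI and 8.48, 8.65 and 8.80 in HSC + TBI rats. It lay lowest in HSC + TBI rats, by -0.58 from control (adjusted p = 0.0405, 1.49-fold lower and so under the minimum) and by -0.40 from TBI (adjusted p = 0.168). After TBI alone the difference was -0.18 (adjusted p = 0.393).

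Limma called none of the 9 genes of heme and iron handling in any of the 3 comparisons. An unadjusted p under 0.05 was reached by 4, 2 and 0, against 26.1%, 21.9% and 15.0% of all genes. Alas1, which starts heme synthesis in liver, had log2 fold changes of 0.48 after TBI (adjusted p = 0.127) and 0.65 after HSC + TBI (adjusted p = 0.0824; called with a 75th percentile shift, at 0.89 and adjusted p = 0.0242), and Fech, which ends it, one of 0.39 after TBI (adjusted p = 0.29). Hmox2, the constitutive heme oxygenase, had one of -0.49 after HSC + TBI (adjusted p = 0.0944). Blvra, which reduces biliverdin, and Slc40a1, the iron exporter, differed by -0.52 and -0.43 between HSC + TBI and TBI (adjusted p = 0.342 and 0.391).

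The ATF4 stress response, which shares antioxidant targets with Nrf2, had 5 of 6 genes tested. After TBI 2 rose, against 3.87% of all genes. Atf4 was at 12.74, 12.70 and 12.70 in control, 13.41, 13.33 and 13.17 in TBI and 12.82, 12.94 and 12.76 in HSC + TBI rats. The TBI rats lay apart from the rest, with a log2 fold change of 0.59 ± 0.11 (SE, adjusted p = 0.0165), just over 1.5-fold. After HSC + TBI the log2 fold change was 0.13 (adjusted p = 0.581), and between the irradiated groups the log2 difference was -0.47 (adjusted p = 0.104). The TBI call was lost without control 2 (adjusted p = 0.0532) or control 3 (0.057), and without TBI 1 or TBI 2 the change was under the minimum fold. Sesn2, a sestrin also known as a p53 target, was at 6.55, 6.51 and 6.71 in control, 7.35, 7.88 and 7.49 in TBI and 7.79, 7.47 and 7.23 in HSC + TBI rats. It rose 1.98-fold after TBI (log2 fold change 0.98, adjusted p = 0.0168) and 1.88-fold after HSC + TBI (0.91, adjusted p = 0.0366). The first call was lost without control 1 (adjusted p = 0.0515) or control 2 (0.056), and the second without any control, HSC + TBI 1 or HSC + TBI 2. Normexp background correction ended both, with log2 fold changes of 0.57, under the minimum fold, and 0.48 (adjusted p = 0.056). The groups overlapped for Atf3, another stress factor, which was higher after TBI by 1.82 (adjusted p = 0.205) and after HSC + TBI by 0.85 (adjusted p = 0.618), and differed by -0.97 between the irradiated groups (adjusted p = 0.593).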

How the data were processed

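Per the file headers, the authors read spot intensities with Agilent's Feature Extraction 10.7.3.1, and deposited for each spot a processed signal intensity and flags. They also deposited log2 values normalized by quantiles, which were an alternative here. Control spots and outlier spots (84 to 115 of 43379 per array) were left out. With a floor of 1, the processed signals were turned into log2 values and quantile-normalized across all 9 arrays, and the spots of a probe were averaged (41012 probes). They differed from the authors' log2 values by a median of 0.03 per array. A probe was above background where more than a share of 0.5 of its spots carried that flag, and 25367 probes that were so on every array of some group were tested. They cover 9601 named genes, each by its brightest probe. limma 3.58.1 in R 4.3.3 fitted the 3 group means by lmFit and eBayes over all tested probes. No spot was saturated, and the number of arrays limits the precision.

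Groups came from the sample labels. Genes were named by RefSeq accession (GRCr8, used for names and promoters). Nfe2l1, Gsta5, Pgd, Gsr and Trib3 were not matched by accession. The text names all members, every called list gene and the largest changes of each list per comparison (2 genes, called ones included). A gene that meets this rule is not reported here. The members, lists and tests were chosen with earlier results of these data known. The fit was checked on simulated data.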

Additional observations from a re-analysis of the deposited data

How the results depend on the processing

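Of the 24 member changes (8 genes in 3 comparisons), 19 kept their direction in every alternative and 10 also kept their side of the threshold. The 44 changes of other named genes kept their direction throughout, and 22 also their side of the threshold. The reversals were small, uncalled and came with 1 rat left out. After TBI Txnrd1 ranged from -0.0059 (without TBI 1) to 0.62 and Gclc from -0.016 (without TBI 3) to 0.57. Between the irradiated groups Srxn1 ranged from -0.16 to 0.0071 (without TBI 1), Nqo1 from -0.14 (without TBI 3) to 0.24, and Txnrd1 from -0.29 (without TBI 3) to 0.33, with -0.09 without HSC + TBI 2. Below, counts are of 8 tested members and 62 list genes. With 1 rat left out in turn, members called ranged from 1 to 2 after TBI, 0 to 2 after HSC + TBI and 0 to 1 between the irradiated groups, list genes from 2 to 6, 0 to 3 and 0 to 2, and members differing among the 3 groups from 1 to 2. Over all tested probes, the counts called moved from 1839 to between 923 and 2531 after TBI, from 820 to between 332 and 1014 after HSC + TBI, and from 202 to between 50 and 1042 between the irradiated groups. Over all alternatives these counts ranged wider, from 145 to 4527, 100 to 2573 and 2 to 2256 in the same order. The shares of all genes set beside the members thus depend on single rats and on the processing too. With the compared groups alone in the fit, 2 members and 3 list genes were called after TBI and 2 members after HSC + TBI. Of the 25367 tested probes, 1174 were called after TBI in that fit, and after HSC + TBI a count within 1.5 times 820. The methods' t-test at an unadjusted p under 0.05 and 1.5-fold called 2 and 3 members against control, 6 list genes after HSC + TBI and 2 between the irradiated groups, and the analysis of variance at an unadjusted p under 0.01 found 2 members. Of the 25367 tested probes this t-test called 2061 after HSC + TBI and 1367 between the irradiated groups. After TBI its count was within 1.5 times 1839. After Benjamini-Hochberg adjustment the t-test called 0 members in both comparisons with control, and 1 and 0 list genes, and Nfe2l2 had an adjusted p of 0.0732 after TBI and 0.0511 after HSC + TBI. Of the 25367 tested probes the adjusted t-test called 145 after TBI and 100 after HSC + TBI. Without a minimum fold, 2 members were called after TBI and 4 list genes after HSC + TBI. Without the filter on dim probes 1 list gene was called after HSC + TBI, and with a 75th percentile shift 1 between the irradiated groups. With the slide as a random block (correlation -0.327, which narrows the errors), 3, 3 and 1 members, 12, 8 and 3 list genes and, among the 3 groups, 7 members passed. Calls over all probes rose with this block too, to 4527, 2573 and 2256 of 25367 in the 3 comparisons. With the replicate number as a block 1 list gene was called after HSC + TBI and no other member or list count left 1.5 times its value. The numbers were not treated as pairing the rats, because same-numbered rats correlated by 0.0977 to 0.191 between TBI and control, 0.000878 to 0.0146 between HSC + TBI and control and -0.144 to -0.016 between the irradiated groups, and 5 of 9 rats correlated best with their own number. Normexp background correction, the authors' normalized values, the mean of a gene's probes, outlier spots kept, and only probes above background on all 9 arrays (which drops Gclm, Maff and Gpx2) moved no member or list count by over 1.5 times. Over all tested probes, normexp background correction called 718, 516 and 9 in the 3 comparisons. The filter to all 9 arrays left 40 called between the irradiated groups. The causes of these shifts were not tested, and dim probes such as Gclm limit what can be read.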
